A study of Mus musculus with 2 samples.

Results

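Barcodes in which over 10% of the unique molecular identifiers (UMIs, 1 per captured transcript) came from the genes of the mitochondrial chromosome were described in 2 single-cell RNA-seq libraries of myeloid cells from mouse colorectal polyps. They were chosen by the share of UMIs in genes whose symbol starts with mt-, among the barcodes with 200 to 4000 detected genes. By this rule 494 of the 6547 deposited barcodes were members, 213 of 3467 WT and 281 of 3080 Clec7a-/- barcodes. The share that chose them is part of every comparison with barcodes at or below 10%, so these comparisons are a description and carry no test.

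Both libraries came from C57BL6/J mice that received the carcinogen azoxymethane and 3 cycles of 1% dextran sodium sulfate (AOM-3DSS), a colitis-associated model of colorectal cancer, and both were taken 16 weeks into treatment. The labels give the age of both as 26 weeks. The first library was made from WT mice and the second from Clec7a-/- mice, which the labels call KO. The deleted gene itself was not analysed here, so the genotype labels were not checked against it. Cells stained for CD11b and CD11c were sorted by flow cytometry after epithelial cells shed in EDTA had been discarded. Cells of 5 WT mice and of 4 Clec7a-/- mice were pooled before capture, so each genotype is 1 library, no mouse can be told from another, and no difference between genotypes has a replicate behind it. The libraries held 15869215 and 11808230 UMIs, with a median of 3246 and 2696.5 UMIs per barcode. All intervals below are 95% intervals of counting error only, since UMIs correct for copies made in PCR but not for differences between mice or captures. Those of gene levels and gene ratios treat the summed UMIs as independent and also leave out differences between barcodes.

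The mouse mitochondrial chromosome encodes 13 proteins, all of them subunits of the respiratory chain complexes I, III and IV and of the ATP synthase, and these mRNAs stay inside the organelle. Other mRNAs reach the cytoplasm, whereas some long noncoding RNAs such as Malat1 stay in the nucleus. In single-cell work a high mitochondrial share is read as a sign of a damaged cell, because cytoplasmic mRNA is lost before the contents of the organelles. It also differs between healthy cell types, since epithelial cells are rich in mitochondria and neutrophils hold few. The study's own limit was 5%, so the members were outside the cells that it kept.

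Members made up 6.34% (5.54 to 7.22) of the 3360 WT barcodes within the limits on detected genes and 9.42% (8.40 to 10.5) of the 2983 Clec7a-/- barcodes. The log2 ratio of these shares, Clec7a-/- over WT, was 0.57 (0.31 to 0.84). It was 0.17 with a limit of 20% and 1.05 among barcodes with at least 1000 UMIs, and with 1 library each, genotype and library cannot be told apart. Above 5% were 664 WT barcodes (19.8%) and 984 Clec7a-/- barcodes (33.0%), and the members were 32.1% and 28.6% of those. No gap separated the members from the rest. In the WT library 29 barcodes lay between 9% and 10% and 15 between 10% and 11%, and in the Clec7a-/- library these numbers were 50 and 41. The median mitochondrial share of the members was 20.7% for WT and 16.3% for Clec7a-/-, against 3.00% and 3.75% in the other barcodes. Above 40% were 47 WT and 46 Clec7a-/- members, and the highest reached 74.6% and 93.9%. The 2 libraries had 17 barcode sequences in common, of which 2 were members in WT and 1 in Clec7a-/- barcodes.

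**Figure D1:**
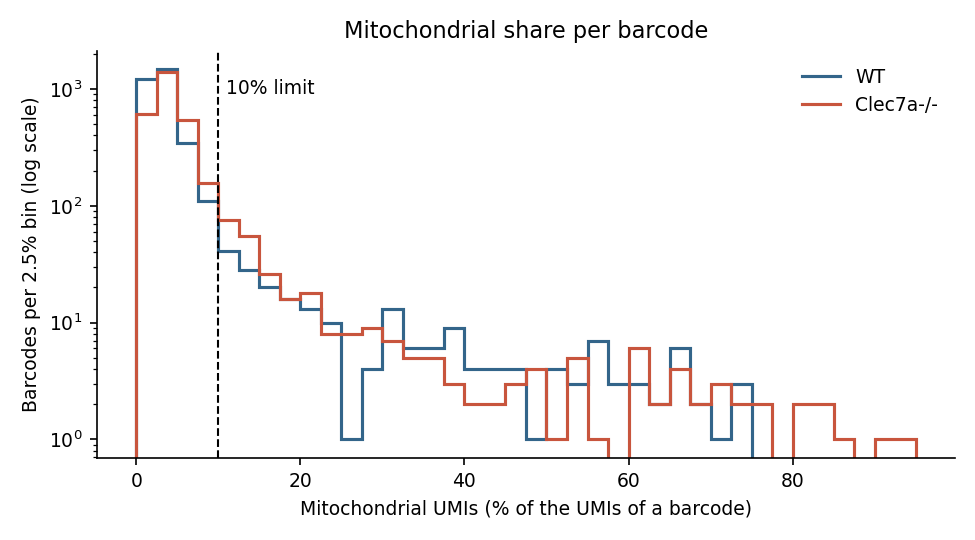
Barcodes within 200 to 4000 detected genes per bin of 2.5% mitochondrial share, on a log axis, by library. The dashed line marks 10%, above which lay 6.34% of the WT and 9.42% of the Clec7a-/- barcodes, with no gap in either library at the line.

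Members were not rich in UMIs. Their median was 1262 UMIs in the WT library against 3383 in barcodes at or below 10%, and 1942 against 2847.5 in the Clec7a-/- library. Outside the mt- genes the medians were 918 against 3287, and 1528 against 2726. In the mt- genes they were 340 against 91, and 413 against 106. So by median the members held more mitochondrial UMIs per barcode and fewer of all others, in both libraries. The rule that chose them is built from these counts. They held 2.99% of the UMIs of the WT barcodes within the limits and 17.8% of the mt- UMIs, and 6.42% and 25.3% in the Clec7a-/- library. Above 2.5%, the median of UMIs outside the mt- genes was lower at a higher mitochondrial share, and up to 2.5% it was 2899 and 1471. For WT it was 4175 in barcodes at 2.5% to 5%, 1830 at 10% to 15% and 428 above 40%. In the Clec7a-/- library it was 3490, 2363.5 and 405.5 over the same ranges.

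To give the lineages of the members, all barcodes within the limits on detected genes were clustered together with the mt- genes left out, and 15 clusters were named from marker lists. Epithelial-like and dendritic cell-like (DC-like) barcodes made up most of the members. The epithelial-like class held 107 of the 213 WT members (50.2%, 43.3 to 57.1) and 63 of the 281 Clec7a-/- members (22.4%, 17.7 to 27.8), against 1.72% and 1.30% of the barcodes at or below 10%. The DC-like class held 65 (30.5%, 24.4 to 37.2) and 132 (47.0%, 41.0 to 53), against 15.6% and 33.0%. Neutrophil-like barcodes were 21.9% and 15.2% of the barcodes at or below 10% but 8 and 4 of the members (3.76% and 1.42%). Macrophage-like barcodes were 20.5% and 15.5% of the barcodes at or below 10%, and 12 and 23 of the members (5.63% and 8.19%). Clusters that could not be named held 13 and 34 members, the T cell-like class 6 and 10, B or plasma cells 2 and 9, monocyte-like barcodes 0 and 4, and mast cell-like barcodes 0 and 2.

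Seen from the classes, 66.5% (58.6 to 73.7) of the 161 WT epithelial-like barcodes and 64.3% (54.0 to 73.7) of the 98 Clec7a-/- ones were above 10%. Epithelial cells are not a target of a CD11b and CD11c sort. The cluster held 10 of the 12 epithelial markers, and it was the only one of the 15 in which over 50% of the barcodes of either library were members. Of the named classes with over 100 barcodes in each library, DC-like barcodes followed, at 11.7% (9.14 to 14.7) of 556 and 12.9% (10.9 to 15.1) of 1025. Among the macrophage-like barcodes the share was 1.83% (0.947 to 3.17) for WT and 5.22% (3.33 to 7.72) for Clec7a-/-. Among the neutrophil-like barcodes it was 1.15% (0.497 to 2.25) and 0.962% (0.263 to 2.44). In both libraries the intervals of the epithelial-like, DC-like and neutrophil-like classes did not overlap each other. No member was among the 327 WT monocyte-like barcodes, which allows a share of up to 1.12%, and 4 of 238 (1.68%) were in the Clec7a-/- library.

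**Figure D2:**
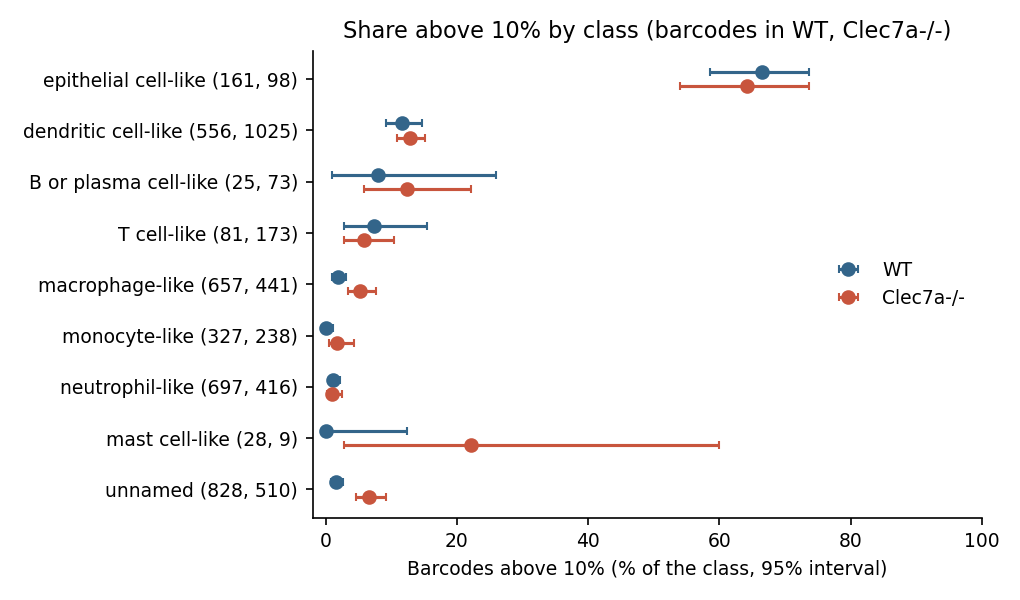
Percent of the barcodes of each class that were above 10% mitochondrial UMIs, in the WT and the Clec7a-/- library, with exact binomial 95% intervals. The epithelial-like class stood at 66.5% and 64.3%, the DC-like class at 11.7% and 12.9% and the neutrophil-like class at 1.15% and 0.962%.

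The DC-like class was made up of 3 clusters. In the cluster led by Clec9a and Xcr1, genes of the cross-presenting conventional DCs, 27 of 173 WT barcodes (15.6%, 10.5 to 21.9) and 61 of 360 Clec7a-/- barcodes (16.9%, 13.2 to 21.2) were members. In the cluster led by Fscn1, an actin-bundling protein of mature DCs, they were 11 of 189 (5.82%, 2.94 to 10.2) and 44 of 408 (10.8%, 7.95 to 14.2). In the third, led by Il22ra2 and Clec10a, they were 27 of 194 (13.9%, 9.38 to 19.6) and 27 of 257 (10.5%, 7.04 to 14.9). This cluster held only 3 of the 13 DC markers, and without it the class held 17.8% of the WT and 37.4% of the Clec7a-/- members. An unnamed cluster of proliferating barcodes, which held all 8 proliferation markers and 5 of the 13 DC markers, also had many members, 6 of 28 (21.4%, 8.30 to 41.0) and 20 of 89 (22.5%, 14.3 to 32.6).

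The makeup of the members shifted with the mitochondrial share. Between 10% and 20%, 41 of 104 WT members (39.4%) were epithelial-like and 38 (36.5%) DC-like. Above 40%, 31 of 47 WT members (66.0%) and 27 of 46 Clec7a-/- members (58.7%) were epithelial-like, and 9 and 11 were DC-like. The few neutrophil-like members lay high, with 5 of 8 and 2 of 4 above 40%. Over 5%, the limit of the study, were 90.1% and 87.8% of the epithelial-like, 38.7% and 48.4% of the DC-like and 2.73% and 3.13% of the neutrophil-like barcodes. When each barcode was instead given the class whose markers held most of its UMIs, the epithelial-like share of the WT members was 41.8%, the DC-like shares were 22.1% and 39.9%, and the neutrophil-like shares rose to 12.7% and 10.7%.

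Within most classes, members again held fewer UMIs outside the mt- genes and more inside them. DC-like members had a median of 1123 UMIs outside the mt- genes in the WT library, against 3768 in DC-like barcodes at or below 10%. In the Clec7a-/- library it was 1763 against 3767, so the medians were 3.36-fold and 2.14-fold lower. Their mt- medians were 308 against 159, and 398.5 against 180. Both medians thus differed in this class, and the rule that chose the members is built from these counts. Epithelial-like members had 685 against 1386 UMIs outside the mt- genes and 387 against 83.5 inside them in the WT library, and 786 against 4235 and 605 against 237 in the Clec7a-/- library. WT macrophage-like members differed, with a median of 999 against 6597 UMIs outside the mt- genes but 282 against 274 inside them. Clec7a-/- macrophage-like members had 1956 against 5649.5, and 571 against 243.5. The 8 WT and 4 Clec7a-/- neutrophil-like members had 414 and 526 mt- UMIs, against 30 and 17 in the other neutrophil-like barcodes, which is the widest gap of any class. Outside the mt- genes the 4 Clec7a-/- ones went against the rest, at 1184.5 against 1031.5, as did the 2 WT members among B or plasma cells, at 3528 against 2433.

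**Figure D3:**
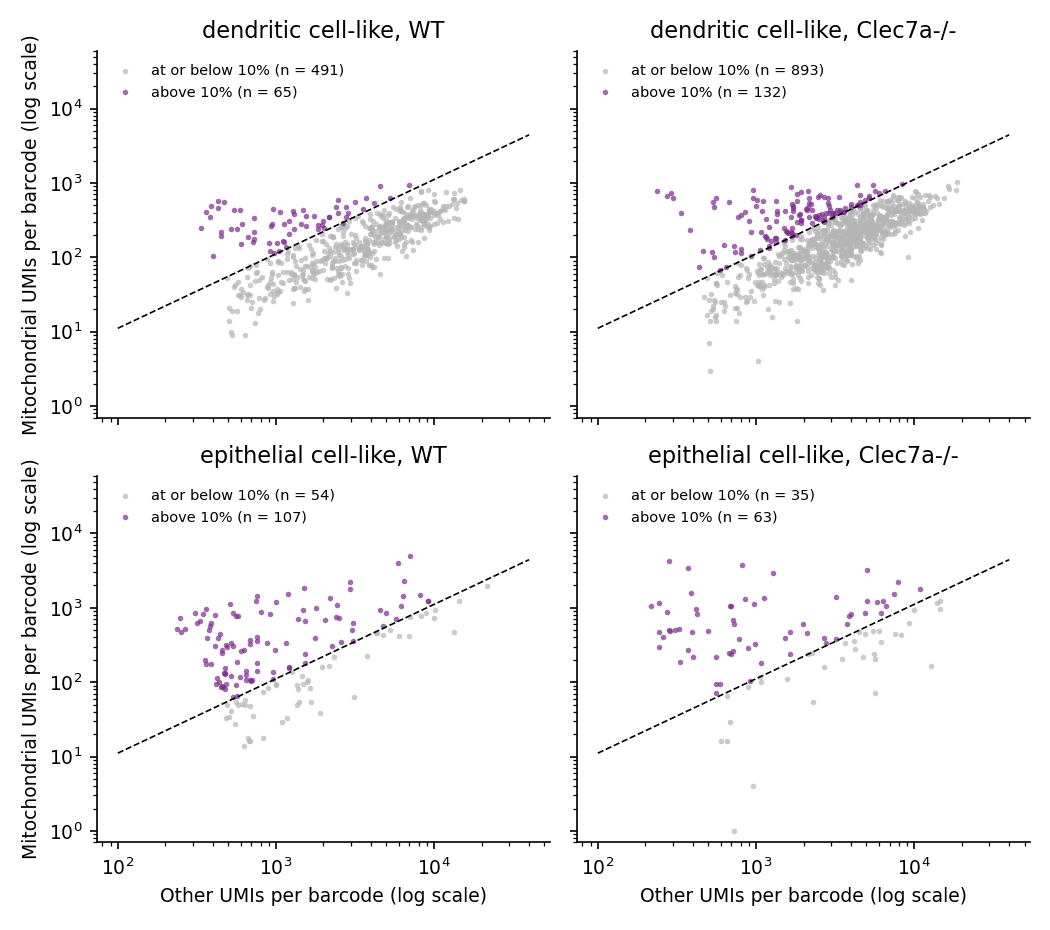
Mitochondrial UMIs against all other UMIs of each DC-like and epithelial-like barcode, by library, on log axes; the dashed line is a mitochondrial share of 10%. Members lie above the line, mostly to the left of the other DC-like barcodes, with medians of 1123 and 1763 other UMIs against 3768 and 3767.

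The 13 mitochondrial mRNAs kept close to the same proportions in members and in the rest. mt-Co1 and mt-Co2, subunits of complex IV, mt-Atp6 of the ATP synthase and mt-Cytb of complex III held the most. mt-Co1 (GRCm38, mitochondrial chromosome, positions 5328 to 6872, plus strand) made up 21.9% of the mt- UMIs of WT members and 24.7% in the other WT barcodes, and 21.9% and 24.0% in the Clec7a-/- library. mt-Atp6 made up 16.0% against 14.2%, and 15.6% against 14.2%. The log2 ratio of the proportions lay between -0.28 and 0.67 for WT and between -0.23 and 0.40 for Clec7a-/-. The highest was mt-Nd4l, a small subunit of complex I, with 697 UMIs in WT and 893 in Clec7a-/- members. mt-Nd4l ends at position 10173, inside mt-Nd4, which starts at 10167, and mt-Atp8 (7766 to 7969) overlaps mt-Atp6 (7927 to 8607), so reads of these pairs may have been split. The lowest was mt-Nd6, the only one of the 13 on the minus strand, with 10 and 15 UMIs in members. The rise in the mitochondrial share was therefore spread over the chromosome and not carried by 1 transcript.

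For all other transcripts, UMIs were summed over members and over barcodes at or below 10% within each library and given per 1000000 UMIs outside the mt- genes (CPM). Genes with at least 100 UMIs were compared, and a gene is counted as higher or lower past a 2-fold difference. In the WT library 1282 of 7873 genes (16.3%) were higher in members and 1079 (13.7%) lower. In the Clec7a-/- library 589 of 7488 (7.87%) were higher and 492 (6.57%) lower. The rule that chose the members is part of this contrast, so nothing is read from these shares. Of the 7329 genes compared in both, 386 were higher in both, 336 lower in both and 18 past 2-fold in opposite directions. The direction of the split depended on the scale. With TMM scaling, which lowered the members' ratios by a log2 of 0.48 and 0.31, 592 genes were higher and 1920 lower in WT and 292 and 927 in Clec7a-/- members. With the mt- genes counted in the total these numbers were 736 and 1636, and 307 and 860.

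The genes that were highest in members of both libraries were epithelial. Lypd8, a secreted protein that keeps flagellated bacteria from the colonic epithelium, stood at 2411 CPM in WT members and 18.0 CPM in the other barcodes, and at 979.1 against 34.1 CPM in the Clec7a-/- library. Pigr, the receptor that carries IgA across the epithelium, stood at 599.0 against 5.05 CPM and 191.6 against 9.14 CPM. Dmbt1, a mucosal pattern-binding glycoprotein, stood at 1053 against 5.27 CPM and 314.0 against 15.6 CPM. The same rule gave Ckmt1, a creatine kinase of mitochondria, the membrane mucins Muc3 and Muc13, Tm4sf20, Maoa, which breaks down monoamines, Lgals4, a galectin of the gut epithelium, and Gm26917. For the 9 named besides Gm26917, between 96.5% and 100% of the members' UMIs were in epithelial-like barcodes. Pigr, Ckmt1, Muc3, Tm4sf20 and Maoa had under 100 UMIs at or below 10% in both libraries, as had Dmbt1 and Muc13 in WT. There they reached the minimum of 100 through the members, so that their rank is in part set by the rule. Among the fixed epithelial markers, the 8 with enough UMIs were higher in both libraries, beside 16.3% and 7.87% of all genes, with a median log2 ratio of 5.33 and 3.71 against 0.15 and 0.11 over all genes. Members' own UMIs count towards that minimum and let such markers pass it, and among genes with at least 20 expected UMIs 3 and 4 markers were higher. The summed level was 9391 CPM in WT members against 196.0 CPM in the rest, and 3789 against 287.7 CPM in the Clec7a-/- library. Epcam, the epithelial adhesion molecule, stood at 1386 against 37.5 CPM and 542.8 against 61.3 CPM. With the classes weighted to the same shares in members and in the rest, or without the epithelial-like class, 1 of these markers was past 2-fold in each library.

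Genes of macrophages, monocytes and neutrophils were lower in members. All 10 macrophage markers were lower past 2-fold in WT and 7 of 10 in Clec7a-/- members. C1qb, a chain of the first complement component, stood at 502.2 against 1815 CPM and 826.6 against 1601 CPM. Of the neutrophil markers, 9 of 10 and 4 of 9 were lower. S100a9, a calcium-binding alarmin of neutrophils, stood at 962.1 against 3434 CPM and 445.2 against 958.0 CPM. Of the monocyte markers, 8 of 10 and 7 of 9 were lower, with Plac8 as an exception at 753.3 against 253.4 CPM and 408.0 against 318.7 CPM. Of all genes 13.7% and 6.57% were lower. With the classes weighted to the same shares, 3 and 1 macrophage markers and 2 and 0 neutrophil markers were lower past 2-fold, and S100a9 was higher in Clec7a-/- members, at a log2 ratio of 0.68. A limit of 5% left 0 and 1 macrophage markers lower past 2-fold, with C1qa at 0.11 in WT members. At that limit 8 neutrophil markers were lower in Clec7a-/- members. The lowest genes by the rule for named genes included Ptgir, Vcan, Fcrls, Ppbp, Saa3, Chil3, Slc6a12, Ccl24 and Mmp13, many of them known from macrophages, monocytes or megakaryocytes. Ptgir, the prostacyclin receptor, had 0 UMIs in the members of both libraries. With 0 taken as 3 UMIs it was 1.63-fold and 2.23-fold lower, and the upper ends of its log2 intervals were -0.39 and -0.83. Vcan, a proteoglycan, and Slc6a12, a betaine transporter, also had 0. Taken the same way, Vcan was 1.40-fold and 1.98-fold lower, with upper ends of -0.17 and -0.66. Slc6a12 was 1.04-fold and 2.34-fold lower, with upper ends of 0.26 and -0.91, so that its WT interval included no difference.

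Inflammatory genes were part of this. Of 15 cytokine and NF-kappaB genes, 9 were lower past 2-fold in WT members and 7 in Clec7a-/- members, and none was higher, where 13.7% and 6.57% of all genes were lower. Il1a stood at 48.4 against 371.1 CPM and 28.4 against 149.4 CPM. Cxcl3, a neutrophil-attracting chemokine, stood at 102.9 against 727.3 CPM and 95.8 against 354.1 CPM. Ptgs2, which encodes the prostaglandin-forming enzyme Cox2, stood at 87.7 against 329 CPM and 76.3 against 153.0 CPM, a log2 ratio of -1.88 (-2.49 to -1.38) and -0.99 (-1.48 to -0.57). Inside the DC-like class 4 of 13 genes were lower past 2-fold in WT members, and 2 of 12 were lower and 1 higher in Clec7a-/- members, with a median of -0.55 and -0.36. Of all genes in that class 9.75% and 6.14% were lower.

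A few transcripts rested on single barcodes. Igkc, the kappa light chain of antibodies, stood at a log2 ratio of 3.53 and 2.14 in members. In the WT library 1500 of its 1560 member UMIs were in 1 barcode, and in the Clec7a-/- library 1787 of 1891. Without that barcode the ratios were -1.15 and -2.03, and without the largest barcode of each set, since 2050 of 5580 and 1901 of 7555 UMIs at or below 10% were in 1 barcode each, they were -0.49 and -1.61. The plasmacytoid DC list rested on 1 gene in the WT library. Its summed level was 822.9 against 71.5 CPM, but Klk1 held 76.5% of the members' UMIs and Siglech, which marks these cells, was at 0. In epithelial-like members Klk1 held 88.1% of the list's UMIs.

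Epithelial-like barcodes made up the largest group of WT members, and the class was compared within itself. Most genes did not differ past 2-fold. In the WT library 80 of 1201 genes (6.66%) were higher in members and 63 (5.25%) lower, and in the Clec7a-/- library 58 of 1078 (5.38%) and 62 (5.75%). Of the 976 genes compared in both, 17 were higher in both, 2 lower in both and 7 in opposite directions. With a limit of 5%, 254 genes were higher and 53 lower in the WT library and 136 and 48 in the Clec7a-/- library. When the mt- genes were counted in the total, 44 were higher and 177 lower in WT and 26 and 241 in Clec7a-/- members. The epithelial markers had a median log2 ratio of 0.40 and 0.10. Epcam stood at 2734 against 2391 CPM in WT and 2420 against 2962 CPM in Clec7a-/- barcodes, and Krt8 at 4986 against 3621 CPM and 4677 against 4359 CPM. Past 2-fold higher were 2 of 10 markers in the WT and 1 of 9 in the Clec7a-/- library, beside 6.66% and 5.38% of all genes in the class, and none was lower past 2-fold. Lgals4 was past 2-fold in the WT library only, with a log2 ratio of 1.46 (1.28 to 1.66) against 0.89 (0.70 to 1.07), though 168 of the 316 WT UMIs at or below 10% were in 1 barcode, and without the largest barcode of each set the WT ratio was 2.23. Car1, the carbonic anhydrase of surface colonocytes, had 55 UMIs in members against 2 in WT and 95 against 53 in Clec7a-/- barcodes, a log2 ratio of 4.53 and 1.34. Both WT UMIs at or below 10% were in 1 barcode. Of the 53 Clec7a-/- ones 41 were in 1 barcode, and without the largest barcode of each set the Clec7a-/- ratio was 2.90.

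The rule for named genes gave Sycn, 2200002D01Rik, Gsdmc4, Cela1 and Slc20a1 as higher in epithelial-like members. All 5 had under 50 UMIs at or below 10% in both libraries and reached the minimum of 50 through the members, so that their rank is in part set by the rule. Sycn, a protein of secretory granules, had 85 UMIs in 13 WT members and 1 in the rest, and in the Clec7a-/- library 74 in 6 members, 44 of them in 1 barcode, and 0 in the rest. Gsdmc4, a member of the gasdermin family of pore-forming proteins, stood at 325.2 against 23.1 CPM and 711.4 against 172.5 CPM, but 27 of the 30 Clec7a-/- and 3 of the 4 WT UMIs at or below 10% were in 1 barcode each. Cela1, an elastase, stood at 475.7 against 132.8 CPM and 425.2 against 120.8 CPM. The lowest were Ptma, Fst, Anxa5, Plet1 and Nop10. Ptma, a small acidic nuclear protein of growing cells, stood at 1234 against 2651 CPM and 1603 against 3473 CPM. Heat shock genes differed between the libraries. In WT epithelial-like members 5 of 10 were lower past 2-fold, against 5.25% of all genes in the class, with Hspa1a at 445.6 against 2056 CPM and Hspa1b at 505.8 against 2270 CPM. In the Clec7a-/- library none of the 10 was past 2-fold, against 5.75% of all genes lower, with Hspa1a at 768.6 against 1133 CPM and Hspa1b at 1284 against 1351 CPM. This difference between libraries was not tested.

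Gm26917, a noncoding transcript annotated over ribosomal RNA repeat sequence, was the most abundant transcript of its list in WT members. It stood at 24113 against 630.2 CPM for WT and 2962 against 58.6 CPM for Clec7a-/-. Nearly all of it was in epithelial-like barcodes, which held 7818 of 7970 UMIs in WT members (98.1%) and 1653 of 1670 in Clec7a-/- members. Inside that class it was 47078 against 42320 CPM in the WT library, with a log2 ratio of 0.15, and 13516 against 845.4 CPM in the Clec7a-/- library (log2 3.99.) Without the epithelial-like class the ratio in the Clec7a-/- library was -0.17, while that in the WT library did not reverse. At or below 10%, epithelial-like barcodes held 7328 of the 8616 WT UMIs and 147 of the 583 Clec7a-/- UMIs. The 147 Clec7a-/- UMIs at or below 10% were in 4 of 35 epithelial-like barcodes, 90 of them in 1, and without the largest barcode of each set the ratio was 5.02.

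DC-like members were compared with the DC-like barcodes at or below 10%, since both libraries held over 60 of them and DCs were sorted on purpose. In the WT library 476 of 4842 genes (9.83%) were higher and 472 (9.75%) lower, and in the Clec7a-/- library 397 of 6315 (6.29%) and 388 (6.14%). Of 4827 genes compared in both, 84 were higher in both, 77 lower in both and 10 in opposite directions. These counts depended on the setting. With a limit of 5%, 48 genes were higher and 52 lower in the WT library and 38 and 47 in the Clec7a-/- library. With a pseudocount of 5 they were 1770 and 31, and 1261 and 38. With the mt- genes counted in the total, 261 were higher and 676 lower in WT and 216 and 584 in Clec7a-/- members. Many of these genes had few UMIs in members. Among the 916 genes for which at least 20 UMIs were to be expected in the members of each library, a rule chosen after the values were seen, 13 were higher in both, 25 lower in both and none in opposite directions.

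Malat1, the nuclear noncoding RNA of splicing speckles, was the highest. It stood at 9549 CPM in DC-like members against 1738 CPM in the WT library, with a log2 ratio of 2.46 (2.35 to 2.56), and at 7889 against 1809 CPM in the Clec7a-/- library (log2 2.12, 2.05 to 2.19). At least 1 UMI was in 59 of the 65 WT and 129 of the 132 Clec7a-/- members. Within the 3 clusters of the class its log2 ratio lay between 1.89 and 2.77 in both libraries. The members also held more Malat1 UMIs per barcode, with a median of 8 against 3 and 11.5 against 3, although their totals outside the mt- genes were lower. Gm42418, annotated over the same kind of repeat, stood at 1203 against 270.9 CPM and 885.4 against 248.7 CPM. The other genes higher in both among the 916 were Eif5b, Ppig, Rplp1, Rpsa, Gm2a, Grn, Baz1a, Rpl8, Nr4a1, Rps10 and Tapbp. Eif5b joins the ribosomal subunits at the start of translation, at a log2 ratio of 1.49 and 1.19. Tapbp, the tapasin that loads peptides onto MHC class I, stood at 1.26 and 1.31, and Nr4a1, an orphan nuclear receptor of the immediate early response, at 1.10 and 1.21. Rplp1, Rpsa, Rpl8 and Rps10 have many near-identical pseudogenes, so their values are uncertain.

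By the rule for named genes, Ckb, the brain-type creatine kinase, Khk, which phosphorylates fructose, and Cdk11b, a kinase of transcription and splicing, were next. Ckb stood at 528.3 against 140.2 CPM for WT and 595.0 against 179.1 CPM for Clec7a-/-. Cdk11b stood at 234.8 against 77.6 CPM and 261.7 against 61.9 CPM. Khk rested on 7 and 22 UMIs in members.

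Ccl17, the chemokine by which mature DCs draw CCR4+ T cells, was the lowest of the 916 genes by the smaller difference of both libraries. DC-like members held 11 UMIs in the WT library, 107.6 CPM against 600.2, and 52 in the Clec7a-/- library, 186.4 against 722.6 CPM. It was seen in 4 of 65 and 19 of 132 members, against 185 of 491 and 364 of 893 other DC-like barcodes. Its log2 ratio was -2.42 (-3.49 to -1.64) and -1.94 (-2.38 to -1.56), and it was negative in each of the 3 clusters in each library, from -3.87 to -0.58. Ccl22, the sister chemokine that binds the same receptor, went the other way, at 2544 against 1618 CPM and 3276 against 2212 CPM, which is within 2-fold. Sar1b, Il22ra2, Ints8 and Med10 were also named by the rule but rested on 0 to 3 UMIs in members. Il22ra2, which encodes the IL-22 binding protein, had 0 in both libraries and leads the third of the DC-like clusters. Among the Clec7a-/- barcodes 17 of the 893 other DC-like ones held all of its 82 UMIs, 31 of them in 1 barcode, and no fold is given.

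**Figure D4:**
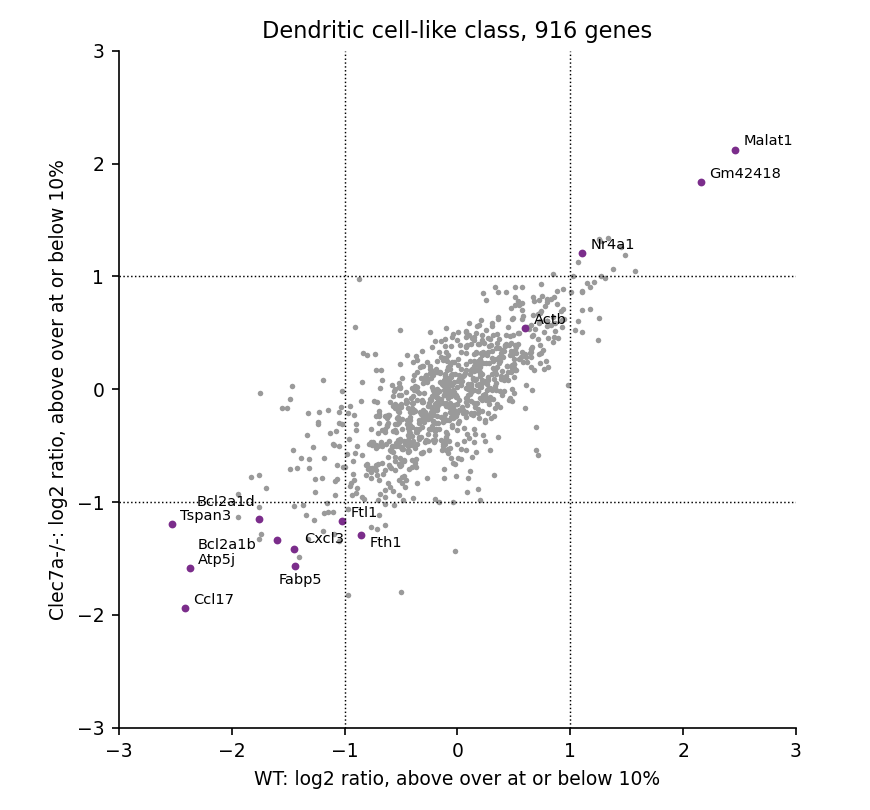
Log2 ratio of DC-like members over DC-like barcodes at or below 10%, WT library across and Clec7a-/- library up, for the 916 genes with at least 20 expected UMIs, with dotted lines at 2-fold. Malat1 lay at 2.46 and 2.12 and Gm42418 at 2.16 and 1.83, and Ccl17 lay at -2.42 and -1.94.

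Of 13 genes for abundant cytosolic mRNAs, 1 was higher and 1 lower past 2-fold in WT members and 0 and 2 in Clec7a-/- members, beside 9.83% and 9.75% of all genes in the class for WT and 6.29% and 6.14% for Clec7a-/-. The ferritin chains held the lower ones, with Ftl1 at 2808 against 5698 CPM and 1710 against 3839 CPM, with a log2 ratio of -1.02 and -1.17, and Fth1 with -0.85 and -1.29. Tmsb4x, which sequesters actin, was at -0.80 and -0.70. Pfn1, which also binds actin, was at 1.21 and 0.95, and Actb at 0.60 and 0.54. The ferritin genes have pseudogenes that can take their reads. Among the 25 genes lower in both were also Ncoa4, the receptor that takes ferritin to the lysosome, at -1.15 and -1.01, Lyz2, Tyrobp, S100a4, Fabp5 and Cxcl3.

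Survival genes of the Bcl2 family were split. Bcl2a1b and Bcl2a1d, mouse copies of A1, an NF-kappaB target that binds death-promoting members of the family, were lower in DC-like members. Bcl2a1b stood at 587.0 against 1793 CPM and 577.1 against 1464 CPM, with a log2 ratio of -1.60 (-2.0 to -1.24) and -1.34 (-1.58 to -1.12). Bcl2a1d stood at 254.4 against 878.4 CPM and 311.9 against 694.8 CPM, with -1.76 (-2.41 to -1.23) and -1.15 (-1.48 to -0.85). The copies are near identical, so how the reads were split between them is uncertain, and their ratios are not independent of each other. In each of the 3 clusters the ratio of Bcl2a1b lay between -1.77 and -1.05. Mcl1 had -0.56 and -0.60, and Bcl2l1, which encodes Bcl-xL, had 0.90 and 0.88. Of the survival list 3 of 5 and 2 of 5 genes were lower past 2-fold in DC-like members, beside 9.75% and 6.14% of all genes in the class. Bcl2a1b and Bcl2a1d were among these in both libraries, so the counts rest in part on near-identical copies. On the death side 0 of 5 were past 2-fold in each library, which is near those shares, with Bax at -0.14 and -0.54, Bcl2l11, which encodes Bim, at -0.19 and -0.35, and Pmaip1, which encodes Noxa, at -0.09 and 0.10. Over all barcodes, 4 of 6 survival genes were lower past 2-fold in WT and 2 of 6 in Clec7a-/- members, where 13.7% and 6.57% of all genes were lower, but 0 and 1 without the epithelial-like class.

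Nuclear genes for the respiratory chain and ATP synthase had medians below that of all genes in DC-like members. Of the subunits of complex I encoded in the nucleus, 2 of 23 were higher and 3 lower in WT DC-like members, and 0 of 26 were higher and 4 lower in the Clec7a-/- library, with a median log2 ratio of -0.08 and -0.25, where 9.83% of all genes in the class were higher and 9.75% lower for WT, and 6.29% and 6.14% for Clec7a-/-. Of those of complexes II to V, none of 39 was higher, and 8 and 5 were lower, with a median of -0.32 and -0.27. Atp5j, a subunit of the ATP synthase, stood at 39.1 against 227.3 CPM and 82.4 against 252.1 CPM, and Uqcrb, of complex III, at 88.1 against 253.6 CPM and 132.6 against 274.6 CPM. Over all genes compared in the class the median was 0.07 and 0.09. Over all barcodes, where 16.3% and 7.87% of all genes were higher, the counts differed: of complex I 7 of 28 were higher and 1 lower past 2-fold in WT members and 0 of 27 in Clec7a-/- members, with medians of 0.69 and 0.27, and of complexes II to V 9 of 40 and 0 of 40 were higher and none lower, with medians of 0.64 and 0.17, against 0.15 and 0.11 for all genes. Of the genes that guide damaged mitochondria to degradation, 3 of 6 were lower in WT and 1 of 7 in Clec7a-/- DC-like members. In that class 9.75% and 6.14% of all genes were lower. Over all barcodes 3 of 9 and 0 of 8 of these genes were lower. In Clec7a-/- DC-like members Map1lc3b stood at -1.02. Sqstm1, the most abundant, was at -0.18 and -0.04 in the DC-like members of WT and Clec7a-/-.

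The stress lists held genes past 2-fold in both directions in DC-like members, where of all genes compared 9.83% were higher and 9.75% lower in the WT library and 6.29% and 6.14% in the other, and no list is called apart from these shares. Of the caspase and death receptor genes, 1 of 10 was higher and 2 were lower in the WT library, and 0 and 1 in the Clec7a-/- library. Of the p53 targets, 0 of 6 were past 2-fold in the WT library, and 2 of 7 were higher and 1 lower in the Clec7a-/- library. Of the integrated stress response, 2 of 7 were higher and 1 lower, and 2 of 9 and 0, with Atf4, its central factor, at 0.88 and 0.76. Of the heat shock genes 2 of 9 were lower in WT and none past 2-fold in Clec7a-/- members. Of the immediate early genes, 5 of 12 and 1 of 13 were higher, with Junb at 2280 against 1060 CPM and 2359 against 1292 CPM. Of the chaperones and the translocon of the endoplasmic reticulum, Sec61a1, the channel itself, was higher in both libraries, at 1.33 and 1.03, and Dnajb9 had -1.46 and -0.80. Of the lysosome genes, 3 of 16 were higher and 2 lower in the WT library, and 2 of 16 and 0 in the Clec7a-/- library. Their median log2 ratio was -0.38 and 0.14, and Psap, a precursor of lysosomal activators, had 0.88 and 0.87.

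Most DC markers were within 2-fold. In the WT library 1 of 12 was higher and 3 lower past 2-fold, and in the Clec7a-/- library 3 were higher and none lower, beside 9.83% higher and 9.75% lower of all genes in the class for WT and 6.29% and 6.14% for Clec7a-/-. Ccr7, which takes DCs to lymph nodes, stood at 3463 against 3263 CPM and 3050 against 3023 CPM. Wdfy4, which cross-presentation needs, stood at 391 against 167.0 CPM and 383.5 against 189.6 CPM. The Clec9a and Xcr1 cluster, which expresses it most, held 27 of the 65 WT and 61 of the 132 Clec7a-/- members, against 146 of 491 and 299 of 893 of the others. Inside that cluster Wdfy4 had a log2 ratio of 0.73 (0.09 to 1.27) and 0.73 (0.39 to 1.04). Markers of other lineages were also present in the class. The neutrophil markers summed to 2426 against 1712 CPM for WT and 1351 against 1083 CPM for Clec7a-/-, and Il1r2, a decoy receptor for IL-1, held 54.8% and 84.9% of the members' UMIs. The macrophage markers summed to 273.9 against 154.7 CPM and 218.7 against 147.7 CPM, led by C1qb and Apoe. Mrc1 and Trem2 were at 0 in the WT and Adgre1 and Ms4a7 in the Clec7a-/- members, and of the neutrophil markers Mmp8 was at 0 in both. Epcam had 0 UMIs in the 65 WT members and 5 in the 132 Clec7a-/- members. S100a9 stood at 518.5 against 273.6 CPM for WT and 143.4 against 88.4 CPM for Clec7a-/-, and C1qc at 58.7 against 29.5 CPM and 53.8 against 18.9 CPM. The part that RNA of other cells had in the DC-like differences was not tested.

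Malat1 was high beyond the DCs. It was higher in members in 18 of the 18 pairs of a cluster and a library with at least 5 members, with log2 ratios from 0.44 to 3.56, and in 12 of 12 pairs of a class and a library, from 1.28 to 3.56. The lowest was the proliferating cluster with DC markers in the WT library, whose interval spanned 0 (-0.24 to 1.00). In macrophage-like members it stood at 3080 against 540.9 CPM and 3207 against 694.8 CPM, in T cell-like members at 6072 against 1075 CPM and 5082 against 902.6 CPM, and in the 8 WT neutrophil-like members at 8517 against 2807 CPM. The level rose in steps with the mitochondrial share, below as well as above 10%. In WT DC-like barcodes it was 1407 (1345 to 1470) CPM at 2.5% to 5%, 2676 (2543 to 2814) at 5% to 10%, 6882 (6260 to 7548) at 10% to 15% and 15511 (13783 to 17396) above 20%. In the Clec7a-/- library these levels were 1281 (1234 to 1330), 2700 (2615 to 2787), 6457 (6104 to 6825) and 13911 (12812 to 15080). Between up to 2.5% and 2.5% to 5% the level did not differ beyond counting error, at 1439 (1285 to 1606) and 1290 (1138 to 1457) up to 2.5%. Epithelial-like barcodes of the WT library showed no such rise until 15%, with 2201 (1964 to 2459) CPM at 5% to 10%, 1815 (1499 to 2179) at 10% to 15%, 3495 (2864 to 4223) at 15% to 20% and 9210 (8523 to 9938) above 20%. The Clec7a-/- epithelial-like barcodes had 591 (464 to 741), 1271 (967 to 1639), 2015 (1571 to 2546) and 8729 (7850 to 9681) CPM over the same ranges. In these steps the mitochondrial share and the UMIs outside the mt- genes moved together, and their parts cannot be told apart.

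**Figure D5:**
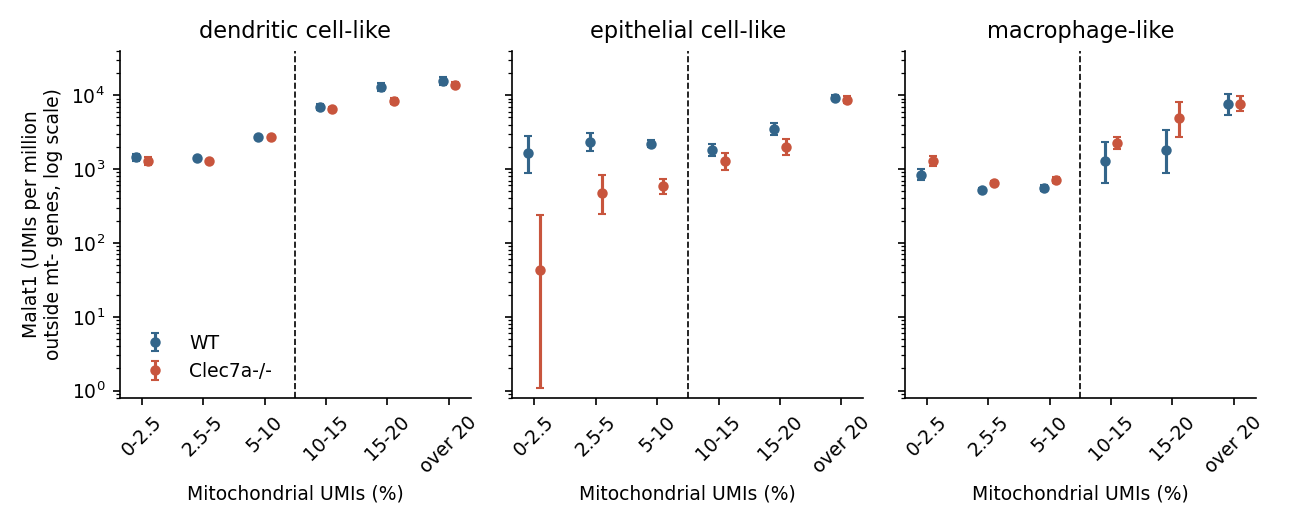
Malat1 level in CPM outside the mt- genes, by range of the mitochondrial share, in DC-like, macrophage-like and epithelial-like barcodes of both libraries, with exact Poisson 95% intervals on a log axis. DC-like barcodes went from 1407 and 1281 CPM at 2.5% to 5% to 15511 and 13911 CPM above 20%.

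Of the other nuclear or long noncoding RNAs, Kcnq1ot1, which silences its neighbours on the paternal chromosome, stood at 24.2 against 6.88 CPM over all WT barcodes and 37.2 against 9.65 CPM in the Clec7a-/- library. Neat1, the RNA of paraspeckles, stood at 354.0 against 126.6 CPM and 136.6 against 95.2 CPM. Inside the DC-like class Neat1 had a log2 ratio of -0.15 for WT and 1.03 for Clec7a-/-. So 5 of 5 genes of the list were past 2-fold in WT and 4 of 5 in Clec7a-/- members over all barcodes, where 16.3% and 7.87% of all genes were higher, and 3 of 4 in each inside the DC-like class, where 9.83% and 6.29% were. Over all barcodes 3 were higher in WT members with the classes weighted to the same shares or without the epithelial-like class, and 2 in Clec7a-/- members with a limit of 5%.

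The number of genes detected per barcode was lower in members, with a median of 540 against 1327 for WT and 874 against 1282.5 for Clec7a-/-. Thinned to 400 UMIs outside the mt- genes, which left out 25 members in each library, the medians were 300 against 296 and 311.5 against 301. The medians thus differed by 4 and 10.5 genes, and this was not tested. At that depth 43.6% (36.4 to 51.0) of WT members had a UMI of an epithelial marker, against 2.73% of the rest, and 20.3% (15.6 to 25.8) of Clec7a-/- members against 2.92%. Ptprc, which encodes the leukocyte antigen CD45, was seen in 6.38% against 15.4% and in 9.38% against 16.7%. In DC-like barcodes the Ptprc shares were 8.20% against 8.35% and 8.73% against 9.41%.

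The 2 genes behind the sort were lower over all members. Itgam, which encodes CD11b, stood at 102.9 against 407.7 CPM and 62.1 against 221.8 CPM, and Itgax, which encodes CD11c, at 320.7 against 607.6 CPM and 399.1 against 519.9 CPM. In the epithelial-like members both were lower still, with Itgam at 48.2 and 16.4 CPM, on 8 and 2 UMIs, and Itgax at 48.2 and 73.6 CPM, on 8 and 9 UMIs. Ptprc had 1 UMI in the 107 WT and 2 in the 63 Clec7a-/- epithelial-like members. In the DC-like class Itgam stood at 19.6 against 32.2 CPM for WT, on 2 UMIs in members, and at 43.0 against 18.9 CPM for Clec7a-/-, on 12. Itgax did not differ past 2-fold there, at 401.1 against 347.1 CPM and 401.5 against 320.3 CPM.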

How the data were processed

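Cells of both libraries had been captured and sequenced by the study, and the files were used as deposited. Per the file headers and the values, the authors deposited whole-number UMI counts for 32285 mouse genes and each barcode, with no normalization and with no barcode under 500 UMIs. The submitters' processing notes name Cell Ranger 2.1.1 and the mm10 build. The methods name a SeekOne capture kit while the labels name 10x Genomics. The methods state no removal of doublets, and no doublet caller was run here, so doublets may be among the barcodes. The study kept barcodes with 200 to 4000 genes and up to 5% mitochondrial UMIs, and only the gene limits were kept here.

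Barcodes were clustered with Seurat 5.3.0 in R 4.3.3 without the mt- genes (2000 variable genes, 20 principal components, clustering resolution raised until 15 or more clusters appeared). A cluster was named from at least 3 markers of a fixed list. UMIs were summed per library and set, a pseudocount of 0.5 was added, and genes with at least 100 UMIs, or 50 within a class, were compared on UMIs outside the mt- genes. TMM factors came from edgeR 4.0.16. Intervals are exact 95% intervals (binomial by Clopper-Pearson, Poisson, or conditional for a ratio), and a count of 0 was bounded at 3 UMIs per set. With 1 library per genotype no test was made. Python 3.11.15, numpy 2.4.6, scipy 1.17.1, pandas 2.3.3 and matplotlib 3.10.9 were used, and the scripts were tested on simulated data. Mitochondrial positions are those of GENCODE M21.

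The members, the gene lists and the settings were chosen with earlier results of these data known. Named genes were the 13 mt- genes, the cell type markers, the listed genes, and in each direction the 10 genes with the largest smaller ratio of both libraries, or 5 within a class with at least 50 members. Genes and alternatives chosen after the values were seen are named as such. Clec7a, Norad and Mx1 were not analysed here, and 2 genes that the rule names are not reported here.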

Additional observations from a re-analysis of the deposited data

Results flagged for a closer look

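A few genes were past 2-fold in opposite directions in the members of the WT and the Clec7a-/- library, and the difference between libraries was not tested. Over all barcodes the mast cell genes did so. Cpa3, a carboxypeptidase of mast cell granules, had a log2 ratio of -2.98 in the WT library, on 1 UMI in members, and 1.5 in the other, where 16 of the 21 member UMIs were in 1 barcode. Mcpt1, a mast cell chymase, had -4.88 and 2.24, on 5 and 294 UMIs, of which 207 were in 1 barcode. Mcpt2 had -4.48 and 2.13, on 6 and 246 UMIs, of which 194 were in 1 barcode. No WT member and 2 Clec7a-/- members were in the mast cell-like class. In the epithelial-like class Lyz2, the lysozyme of myeloid cells, had -1.96 in the WT library, on 37 UMIs in members and 152 in the rest, and 1.22 in the other, on 43 and 26.

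Barcodes with fewer than 200 detected genes were outside the comparison and carried a stronger mitochondrial signal. Their median mitochondrial share was 84.0% over 53 WT barcodes and 92.3% over 67 Clec7a-/- barcodes, and 51 and 63 of them were above 10%. They had a median of 696 and 838 UMIs.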

How the results depend on the processing

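Mice were pooled into 1 library per genotype, so no value has an error between animals, and depth limits genes with few UMIs in members most. No paired analysis was possible because each group is 1 library and the results come from no test. The alternatives with at least 20 expected UMIs, without the epithelial-like class, without the cluster of 3 DC markers and without shared barcode sequences were chosen after seeing the data. The causes of the changes below were not tested. The values for single genes were tallied together with the counts of genes and list members within the DC-like and epithelial-like classes. Of these, 568 stayed within their limits, 102 moved and 3 reversed, and the reversed ones were single genes. C1qa in WT members was 0.11 with a limit of 5%. Gm26917 in Clec7a-/- members was -0.17 without the epithelial-like class, and S100a9 in Clec7a-/- members 0.68 with weighted classes. Of the main values 203 stayed within their limits and 92 moved, as follows.

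The share of barcodes that were members was, for WT and Clec7a-/- in turn, 7.67% and 11.2% with no limit on genes, 19.8% and 33.0% with a limit of 5%, 4.32% and 5.06% with 15%, and 3.24% and 3.65% with 20%. It was 3.71% and 8.15% with 500 to 6000 genes, and 4.33% for WT with at least 1000 UMIs. The log2 ratio of the shares was 1.14 with 500 to 6000 genes, 0.23 and 0.17 with limits of 15% and 20%, and 1.05 with at least 1000 UMIs. By most marker UMIs the classes' shares of WT members were 41.8% epithelial, 22.1% DC and 12.7% neutrophil, those of Clec7a-/- members 39.9% DC and 10.7% neutrophil, and 3.97% of Clec7a-/- neutrophils were members. The DC share was 17.8% and 37.4% without the cluster of 3 markers, and 53.4% of Clec7a-/- members with 30 components.

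Genes higher in WT members numbered 736 with mt- genes in the total, 592 with TMM, 2729 with a pseudocount of 5, 2973 with at least 20 UMIs, 284 with at least 500, 609 with a limit of 5%, 612 with weighted classes and 157 with 20 expected UMIs. Genes lower numbered 1636 with mt- genes in the total, 1920 with TMM, 387 with a pseudocount of 5, 654 with at least 500 UMIs, 433 with 5%, 589 weighted and 523 with 20 expected. In the Clec7a-/- library genes higher numbered 307, 292 and 1128 for the same first 3 settings, 1736 and 104 with at least 20 and 500 UMIs, 212 and 1478 with limits of 5% and 20%, 1033 as a mean over barcodes, 362 weighted and 141 with 20 expected. Genes lower numbered 860, 927 and 178, then 926 and 223, 304 and 1041, 782, 281 and 263.

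Of the lists, epithelial markers higher numbered 4 in each library with at least 500 UMIs, 1 in each weighted or without the epithelial-like class, and 3 and 4 with 20 expected UMIs. Macrophage markers lower numbered 0 and 1 with 5%, 6 and 4 as a mean over barcodes, 3 and 1 weighted, and 4 in the Clec7a-/- library without the epithelial-like class. Neutrophil markers lower numbered 2 and 0 weighted, and in the Clec7a-/- library 8 with 5%, 7 against barcodes up to 5%, and 7 as a mean. Nuclear or long noncoding RNAs higher numbered 3 in WT members weighted or without the epithelial-like class, and 2 in Clec7a-/- members with 5%. Bcl2 survival genes lower numbered 0 in each with 5%, 0 and 1 without the epithelial-like class, and in Clec7a-/- members 5 with mt- genes in the total, with TMM or with 20%, and 4 as a mean. The difference in detected genes was -787 and -408.5 without thinning.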

Other observations

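Transcript length, summed over the exons of the longest transcript of each gene, was looked at after the values were seen. Its Spearman correlation with the log2 ratio of members over the rest was taken across the genes compared. In the DC-like class it was 0.13 for WT and 0.18 for Clec7a-/-, and in the epithelial-like class 0.03 and -0.03. The correlation of the ratio with the summed UMIs of a gene was -0.13 and -0.11 in the DC-like class. In the epithelial-like class it was 0.01 and -0.02. These are correlations across genes, which share their library and are not independent.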
